A study of Mus musculus with 8 samples.

Results

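Malat1, Neat1, Gdap10, Ago2, H3f3a, Ubn2 and Zbed6 are 7 of the 18193 genes that the mouse expression array names alone. They were followed on all 21 of their probe sets, of 45101 on the array, in fetal liver and bone marrow with and without Col18a1, the gene of type XVIII collagen. A probe set is a group of short probes summarised to 1 intensity, and it was used only where the array annotation gives it to 1 of these genes and to no other gene. The genes were chosen by earlier results of these arrays, above all by their higher log2 level in knockout than in wild-type fetal liver. That fetal liver difference is therefore described without a test. Tests of the 7 genes are read only for the difference between tissues averaged over genotypes and for bone marrow. By RefSeq, Malat1, Neat1 and Gdap10 are long non-coding RNAs and the others are protein-coding. Ago2 encodes a protein that acts largely in the cytoplasm, so the group is not one of nuclear or chromatin genes throughout.

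The study compared Col18a1-/- with Col18a1+/+ mice, both maintained on C57B6/J, in whole-tissue cell suspensions. The 4 groups were knockout and wild-type fetal liver at embryonic day 14.5, with the sex of the embryos undetermined, and knockout and wild-type bone marrow flushed from femurs and tibias of males at 3 months. Each group held 2 arrays, and each array held RNA pooled from 2 littermates. P-values measure only the spread between such pools.

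Malat1 is an abundant RNA of nuclear speckles, the domains that store splicing factors, and Neat1 is the scaffold RNA of paraspeckles, nuclear bodies built with RNA-binding proteins. Ago2 encodes the Argonaute protein that binds microRNAs and can cut their targets. H3f3a and H3f3b encode the same protein, histone H3.3, which replaces other H3 histones outside DNA replication, and Ubn2 encodes a subunit of the HIRA complex that deposits H3.3. Zbed6 encodes a zinc finger protein derived from a DNA transposon, known as a repressor of Igf2 in muscle of pigs and mice. Fetal liver at this stage is the main site of blood formation and holds many erythroblasts beside hepatoblasts.

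In the RefSeq annotation (GRCm38.p6), used here for neighbours and promoters and not for positions on the array, whose build is unnamed, Malat1 and Neat1 are adjacent genes on chromosome 19. Gdap10 lies within Nampt, the gene of a nicotinamide phosphoribosyltransferase, on chromosome 12, and Zbed6 lies within Zc3h11a on chromosome 1, each on the strand of its host gene. H3f3a lies on chromosome 1, Ubn2 on chromosome 6 and Ago2 on chromosome 15. A further 4 probe sets are shared between Zbed6 and Zc3h11a, and 5 between H3f3a, H3f3b and related loci; these were kept apart from the 21.

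RefSeq promoter windows, 250 bases before to 50 bases after the start of the gene, were found for 5 of the 7 genes. A pair of windows from the non-coding RNAs and a pair from the coding genes are printed, because all 4 genes were higher in knockout fetal liver and the windows differ in base composition. Capitals mark matches on either strand to 7 motifs. They are the cAMP response element, searched as TGACGTCA, and the CCAAT box, searched under those letters. The TATA box was searched as TATAAA and the GC box as GGGCGG. The motif of ETS factors was searched as CCGGAA, that of GATA factors as AGATAA, and that of NRF1 by its palindrome.
Malat1, chr19:5802623-5802922, minus strand: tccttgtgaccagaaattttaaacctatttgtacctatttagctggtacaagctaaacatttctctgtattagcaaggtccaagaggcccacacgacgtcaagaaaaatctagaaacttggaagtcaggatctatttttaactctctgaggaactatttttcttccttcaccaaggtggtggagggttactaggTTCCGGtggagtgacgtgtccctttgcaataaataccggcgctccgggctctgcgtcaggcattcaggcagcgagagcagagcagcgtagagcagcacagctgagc
Gdap10, chr12:32823866-32824165, plus strand: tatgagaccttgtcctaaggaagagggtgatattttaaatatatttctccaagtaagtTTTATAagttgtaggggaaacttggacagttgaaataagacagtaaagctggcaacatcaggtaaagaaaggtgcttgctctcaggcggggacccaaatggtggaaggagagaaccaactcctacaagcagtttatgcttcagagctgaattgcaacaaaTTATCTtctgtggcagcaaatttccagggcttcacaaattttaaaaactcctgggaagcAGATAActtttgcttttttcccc
H3f3a, chr1:180813556-180813855, minus strand: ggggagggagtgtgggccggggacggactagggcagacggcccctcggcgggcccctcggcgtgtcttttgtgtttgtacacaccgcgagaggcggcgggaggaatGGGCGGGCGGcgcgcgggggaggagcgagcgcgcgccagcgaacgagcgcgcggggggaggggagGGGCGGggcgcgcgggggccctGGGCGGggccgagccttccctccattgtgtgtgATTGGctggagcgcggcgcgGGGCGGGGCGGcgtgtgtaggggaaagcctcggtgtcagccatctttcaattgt
Ubn2, chr6:38433675-38433974, plus strand: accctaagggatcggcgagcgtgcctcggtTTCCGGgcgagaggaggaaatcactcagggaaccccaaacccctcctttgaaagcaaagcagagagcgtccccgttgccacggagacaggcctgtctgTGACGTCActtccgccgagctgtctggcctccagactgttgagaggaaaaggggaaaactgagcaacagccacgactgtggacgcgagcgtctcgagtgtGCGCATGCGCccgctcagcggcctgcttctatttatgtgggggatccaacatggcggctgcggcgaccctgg
The share of G and C was 47% for Malat1 and 40.3% for Gdap10, with 10 and 1 CG steps, and 74% for H3f3a and 61.3% for Ubn2, with 39 and 24 CG steps. Over all 32851 windows the median was 52.7% with 7 CG steps. Gdap10 held 2 AGATAA matches and 1 TATAAA match, motifs found in 11.2% and 13.6% of all windows. H3f3a held 6 GGGCGG matches, some of them overlapping each other, and 1 CCAAT match, motifs found in 35.7% and 37.4% of windows. Ubn2 held 1 TGACGTCA, 1 NRF1 and 1 CCGGAA match, against 1.79%, 0.971% and 14.9% of windows. Malat1 held 1 CCGGAA match, and the unprinted window of Zbed6, at 66% G and C, held 2 of these and 1 GGGCGG. No motif occurred in all 5 windows, and a match describes letters, not binding.

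Col18a1 was lower in the knockout than in the wild type of each tissue, its brighter probe set standing at 8.17 and 8.06 (log2) in knockout against 9.06 and 9.18 in wild-type fetal liver, and at 5.63 and 5.99 in knockout against 7.84 and 7.85 in wild-type bone marrow. Median intensities of the 8 arrays lay between 40.8 and 42.6. The hepatoblast list summed to at least 86678 (linear intensity, 10 genes) on every fetal liver array and at most 326 in bone marrow, and the neutrophil list to at most 13350 and at least 126092 (9 genes), so each tissue carried its own markers. The pools of fetal liver also differed in sex-linked RNA: Xist stood at 4.97 and 4.77 in knockout against 11.04 and 11.22 in wild-type pools, and Eif2s3y, a gene of chromosome Y, at 9.38 and 9.42 against 3.29 and 3.00. Genotype and this sex-linked difference cannot be told apart in fetal liver. None of the 7 genes lies on a sex chromosome.

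In fetal liver the brightest probe set of each of the 7 genes was higher on both knockout arrays than on both wild-type arrays, as it was for 19.9% of all tested genes. Gdap10, about 2.07-fold higher, and Malat1, about 1.75-fold higher, came first in size, while Neat1, also a non-coding RNA, was the smallest at 1.40-fold. Ago2, Ubn2, H3f3a and Zbed6 lay close together at 1.57-fold to 1.67-fold. Their median difference was 0.73 (log2), where that of all 13135 tested genes was -0.03. These differences chose the genes and are given as levels only.

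**Figure D1:**
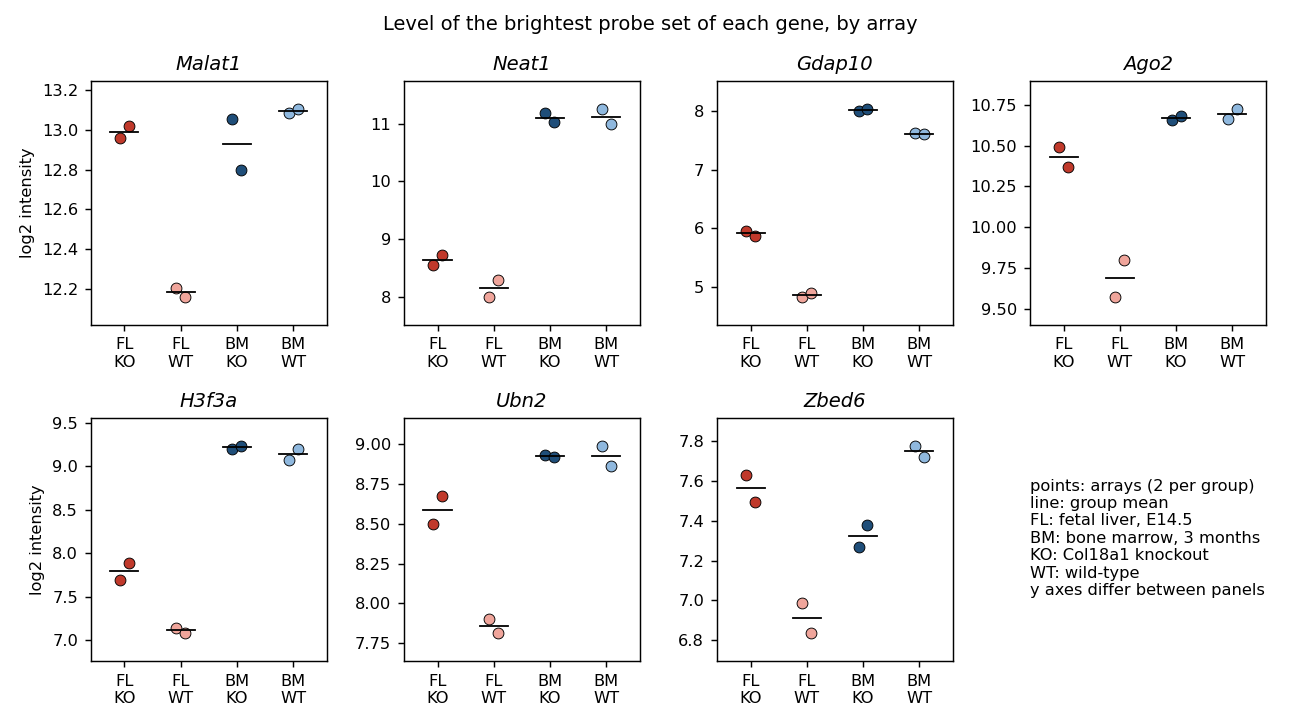
Log2 intensity of the brightest probe set of each gene on the 8 arrays, with knockout (KO) left of wild-type (WT) for fetal liver (FL) and bone marrow (BM); points are arrays, lines are means of 2 arrays, and the vertical scales differ between panels. In fetal liver the knockout points lie above the wild-type points in all 7 panels, from 0.49 (Neat1) to 1.05 (Gdap10) between the means.

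Gdap10, an RNA that RefSeq places within Nampt, is measured by 1 probe set. It stood at 5.96 and 5.87 (log2) in knockout fetal liver and at 4.83 and 4.89 in wild-type fetal liver. The knockout arrays were thus a little over 1 unit higher, a difference of 1.05, with 0.06 or less (SD) between arrays of a group. Both wild-type fetal liver readings were under 5 (log2), the minimum level used to filter genes. Nampt itself did not stand that way: its brightest probe set read 8.003 and 7.97 in knockout against 8.06 and 8.03 in wild-type fetal liver, a difference of -0.05, and its next brightest differed by -0.23. Bone marrow gave the higher levels of Gdap10, 8.004 and 8.04 in knockout and 7.63 and 7.61 in wild-type arrays, so that all 4 groups stood apart without overlap.

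Malat1, the speckle RNA, has 7 probe sets, and 5 of them were higher on both knockout arrays. The brightest read 12.96 and 13.02 in knockout fetal liver, against 12.20 and 12.16 in wild-type fetal liver, a difference of 0.81. Its knockout fetal liver level was within the range of knockout bone marrow, at 13.06 and 12.80, whereas wild-type bone marrow stood at 13.09 and 13.10. Wild-type fetal liver was therefore the group that stood apart on this probe set. The probe set 1438403_s_at had the largest difference, with 11.06 and 11.34 in knockout and 10.26 and 10.10 in wild-type fetal liver. Differences of 0.95 (1418188_a_at), 0.94 (1452378_at) and 0.55 (1436202_at) were also without overlap. The 2 dimmest did not follow: 1429060_at differed by 0.05, with 7.99 and 8.15 in knockout against 7.96 and 8.07 in wild-type arrays, and 1427285_s_at by 0.19 with overlapping groups. The annotation lists 1418189_s_at and 1418188_a_at under 1 source sequence, and 1452378_at and 1427285_s_at under another, so these are not separate readings. The part of the RNA that each probe set reads was not analysed here.

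Neat1, the paraspeckle RNA, has 2 probe sets. The brighter read 8.55 and 8.73 in knockout fetal liver and 8.01 and 8.29 in wild-type fetal liver, a difference of 0.49 against a spread of 0.17 (pooled SD). The dimmer read 6.64 and 6.48 in knockout and 6.42 and 6.29 in wild-type arrays, a difference of 0.21. Both therefore lay the same way as Malat1 but nearer to the spread between pools.

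Ago2, the microRNA-binding protein gene, was higher on both knockout arrays with all 4 of its probe sets. The brightest read 10.49 and 10.37 in knockout fetal liver, against 9.57 and 9.80 in wild-type fetal liver. The 4 differences lay between 0.53 and 0.74, so that the probe sets of Ago2 differed little among themselves, unlike those of Malat1. Of the 4, 1455389_s_at and 1435636_at are listed under 1 source sequence and are not separate readings.

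H3f3a, a histone H3.3 gene, has 1 probe set of its own, at 7.69 and 7.89 in knockout and 7.14 and 7.08 in wild-type fetal liver, a difference of 0.68. The 5 probe sets that it shares with H3f3b and related loci were much brighter and did not show this: they differed by -0.27 to 0.17, with 2 lower, 1 higher and 2 overlapping between genotypes. The probe set of H3f3b alone was dim, at 5.11 and 4.76 in knockout and 4.72 and 4.18 in wild-type fetal liver. Its difference of 0.48 did not pass (adjusted p = 0.296, limma). Ubn2, the HIRA complex gene, had its brightest probe set at 8.50 and 8.68 in knockout and 7.90 and 7.81 in wild-type fetal liver, a difference of 0.73. Its other probe sets differed by 0.37, 0.16 and -0.14, and the last of them, 1458682_at, read 2.89 to 3.54 (log2) over the 8 arrays.

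Zbed6, the transposon-derived repressor gene, had a brightest probe set at 7.63 and 7.50 in knockout and 6.99 and 6.83 in wild-type fetal liver, a difference of 0.65. The dimmer one overlapped, at 5.20 and 5.73 in knockout and 5.25 and 5.48 in wild-type arrays. The 4 probe sets shared with its host gene Zc3h11a were all higher on both knockout arrays, by 0.41 to 0.52. These probe sets do not separate Zbed6 from its host, and none reads Zc3h11a alone. Igf2, the gene that Zbed6 is known to repress, stood at 12.60 and 12.59 in knockout and 12.57 and 12.48 in wild-type fetal liver on its brightest probe set, and at 8.10 and 8.25 against 8.30 and 6.44 on the other, where 1 wild-type array was far below the rest.

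Over all 21 probe sets, 20 had a positive fetal liver difference and 17 had both knockout arrays above both wild-type arrays. Of all 45037 probe sets that are not controls, 20.4% were higher in that way, and nothing is read from the count because this comparison chose the genes. Some other measures moved with it in these 4 pools and some overlapped, and their part in the differences was not tested. The erythroid list (10 markers, 7 with a positive difference) summed to 76319 to 78889 in knockout and 71150 to 73430 in wild-type pools (linear intensity). The endothelial list (5 of 6 tested markers positive) summed to 1872 to 1994 against 1727 to 1802, and the hepatoblast list (8 of 10 positive) to 91327 to 93623 against 86678 to 90054. The neutrophil, B lineage, megakaryocyte and macrophage lists overlapped between genotypes. The ratio of 3 prime to 5 prime Gapdh control probe sets, a sign of RNA quality, overlapped between genotypes. It was 1.86 and 1.62 (log2) in knockout and 1.33 and 1.66 in wild-type pools. In whole tissue, fewer cells of a type and less RNA per cell cannot be told apart.

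Bone marrow asked whether the same genes differed where, for 5 of them, the genotype difference itself had no part in the choice. Malat1, Neat1, Ago2, H3f3a and Ubn2 could be tested, and 0 of these 5 genes passed, with 0 at an unadjusted p under 0.05 (limma, brightest probe set), where 0.411% of all tested genes were called. The fit shares its spread over all groups, so the fetal liver arrays that chose the genes also enter these p-values and the intervals below. Neither is independent of that choice. The median SD of genes was 0.11 and 0.08 in knockout and wild-type fetal liver, against 0.07 and 0.06 in bone marrow. Fitted to the bone marrow arrays alone, 0 of the 5 were called as well (limma). Zbed6 and Gdap10 had been pointed to by earlier results that used the bone marrow arrays, and their values are given without a test. The median of the 7 was -0.02 (log2), against 0.01 for all tested genes. The megakaryocyte list summed to 6466 to 6823 in knockout and 12900 to 15298 in wild-type bone marrow (linear intensity). The B lineage list summed to 11021 to 11148 against 12113 to 12341, and the macrophage list to 6069 to 6265 against 5413 to 5754. Erythroid and neutrophil lists were also higher and the endothelial list lower in knockout, without overlap. Their part in the bone marrow values was not tested.

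Ago2 read 10.66 and 10.68 on the knockout arrays of bone marrow, against 10.66 and 10.72 on the wild-type arrays, a difference of -0.02 with a 95% confidence interval of -0.26 to 0.21 (adjusted p = 0.99, limma). Ubn2 read 8.93 and 8.92 against 8.99 and 8.86, with an interval of -0.23 to 0.23 (adjusted p = 0.999, limma). For both, the genotypes overlapped. H3f3a read 9.20 and 9.23 in knockout and 9.07 and 9.20 in wild-type bone marrow, with an interval of -0.15 to 0.31 (adjusted p = 0.971, limma). Neat1 read 11.18 and 11.02 against 11.25 and 10.99, with an interval of -0.33 to 0.29 (adjusted p = 0.992, limma).

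Malat1 was the least uniform in bone marrow. Its brightest probe set differed by -0.17 ± 0.10 (SE), with an interval of -0.41 to 0.07 (adjusted p = 0.875, limma). Of its 7 probe sets 6 had a negative difference and 5 had both knockout arrays below both wild-type arrays, while 17.6% of all probe sets were lower in that way. The exception, 1436202_at, stood at 11.66 and 10.86 in knockout and 10.86 and 10.35 in wild-type bone marrow, a difference of 0.66. None of these passed over all probe sets (adjusted p = 1 for each, limma), and 2 had an unadjusted p under 0.05, namely 1452378_at at -0.38 and 1436202_at at 0.66, which point opposite ways. Of the 18 probe sets tested in bone marrow 0 passed, against 0.109% of all probe sets. Of the 5 Malat1 probe sets lower without overlap, 1418189_s_at and 1418188_a_at are listed under 1 source sequence. Listed under another are 1452378_at and 1427285_s_at, so the 5 are not separate readings and nothing is read from their count. On the brightest, the nearest arrays stood at 13.06 in knockout and 13.09 in wild-type bone marrow.

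Gdap10 was higher in knockout bone marrow as well, by 0.40, with the 4 arrays given above. Its host Nampt was also higher there, by 0.17 on its brightest and 0.22 on its next brightest probe set. Zbed6 was lower, at 7.27 and 7.38 in knockout and 7.78 and 7.72 in wild-type bone marrow, a difference of -0.43 on the brightest probe set, and at 6.88 and 6.91 against 6.98 and 6.99 on the dimmer one. The 4 probe sets that Zbed6 shares with Zc3h11a differed by -0.26 to 0.06. On their brightest probe sets Gdap10 and Zbed6 thus went opposite ways in bone marrow, while both were higher in knockout fetal liver.

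**Figure D2:**
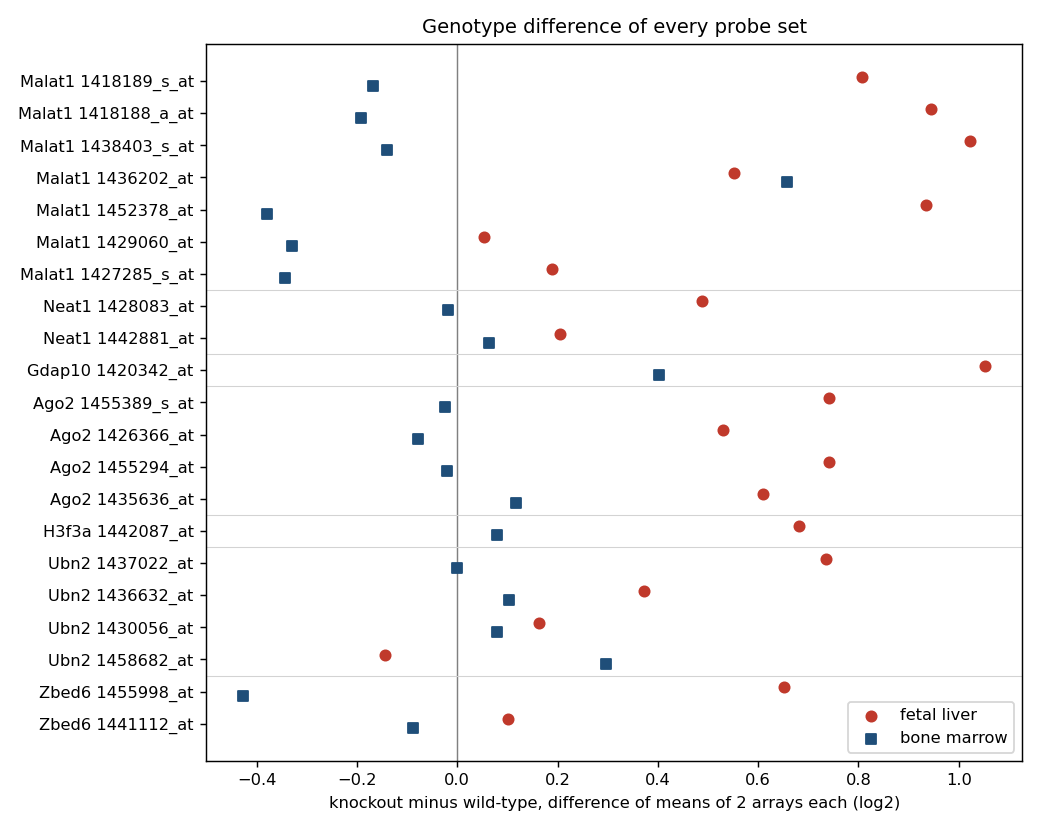
Knockout minus wild-type difference (log2, means of 2 arrays each) of each of the 21 probe sets in fetal liver (circles) and bone marrow (squares). The fetal liver circles reach from -0.14 (a dim Ubn2 probe set) to 1.05 (Gdap10), and the bone marrow squares from -0.43 (Zbed6) to 0.66 (Malat1 1436202_at).

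The tissues themselves differed in these genes. Averaged over both genotypes, all 7 were lower in fetal liver than in bone marrow on their brightest probe set (adjusted p of 0.00428 or less, limma). This contrast is orthogonal to the genotype differences that chose the genes. The fit shares 1 spread over all groups, however, so the arrays that chose the genes also enter these p-values, which are not independent of that choice. In the same fit 30.2% of the 13135 tested genes were lower in fetal liver and 44.2% were higher. The median of the 7 was -0.71, against 0.13 for all tested genes. Over the 21 probe sets 17 were lower and 0 higher, where 24.4% of all probe sets were lower and 27% higher (limma over all probe sets).

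Neat1 had the largest tissue difference. It stood at 8.55 and 8.73 in knockout and 8.01 and 8.29 in wild-type fetal liver, and between 10.99 and 11.25 on the 4 bone marrow arrays, a difference of -2.72 ± 0.10 (SE; adjusted p = 2.19e-08, limma), or 6.57-fold lower. Its dimmer probe set showed no such gap, with a difference of 0.03 ± 0.09 (adjusted p = 0.815, limma over all probe sets), so the 2 Neat1 probe sets disagree. Gdap10 was 5.41-fold lower in fetal liver, a difference of -2.43 ± 0.06 (adjusted p = 2.75e-09, limma), and its host Nampt differed by 0.0037 on its brightest and -0.46 on its next brightest probe set. H3f3a was 3.31-fold lower on the probe set of its own, a difference of -1.73 ± 0.07 (adjusted p = 5.25e-08, limma). The 5 brighter probe sets that it shares with H3f3b and related loci had smaller tissue differences, from -1.05 to 0.16. The probe set of H3f3b alone had a larger one, -5.38 ± 0.18 (adjusted p = 1.31e-08, limma). It read 4.18 to 5.11 in fetal liver and 9.60 to 10.33 in bone marrow.

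Ubn2, at -0.71 ± 0.07, Ago2, at -0.62 ± 0.07, Malat1, at -0.43 ± 0.07, and Zbed6, at -0.30 ± 0.07, had smaller tissue differences (adjusted p = 1.86e-05, 5.81e-05, 0.000686 and 0.00428, limma). For Malat1 the probe sets spread from -0.41 to -2.23, with 6 of 7 lower and 1427285_s_at missing the threshold (adjusted p = 0.0524, limma over all probe sets). Ago2 was lower with 4 of 4 probe sets, at -0.43 to -0.88, Zbed6 with 2 of 2 and Ubn2 with 2 of 4. The Ubn2 probe sets that did not pass were its 2 dimmest, at 0.16 and -0.15.

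Within each genotype the tissue difference is given without a test, because both the knockout and the wild-type fetal liver levels had a part in choosing the genes. On the knockout arrays Malat1 differed by 0.06, Zbed6 by 0.24, Ago2 by -0.24 and Ubn2 by -0.34, and on the wild-type arrays Malat1 by -0.91, Zbed6 by -0.84, Ago2 by -1.01 and Ubn2 by -1.07. The averaged differences of Malat1 and Zbed6 thus rest on the wild-type arrays. On those arrays Xist also differed between tissues, at 11.04 and 11.22 in fetal liver against 4.86 and 4.78 in bone marrow. On the knockout arrays Xist stood at 4.97 and 4.77 in fetal liver against 4.61 and 5.03 in bone marrow. Tissue and this sex-linked difference cannot be told apart on the wild-type arrays. The 3 prime to 5 prime ratio moved with tissue, at 1.33 to 1.86 (log2, Gapdh) in fetal liver and 0.48 to 0.78 in bone marrow, as did the neutrophil and hepatoblast lists above, and their part in the tissue differences was not tested.

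**Figure D3:**
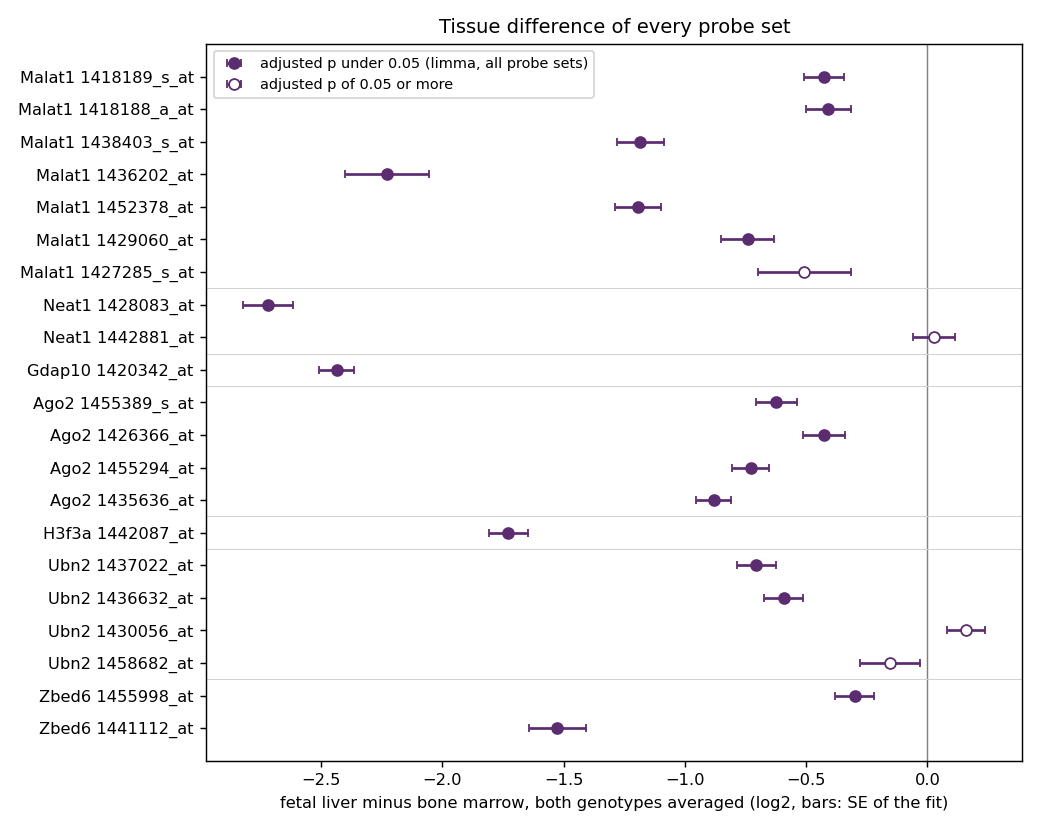
Fetal liver minus bone marrow difference of each of the 21 probe sets, averaged over genotypes (log2), with bars for the SE of the fit and filled points for an adjusted p under 0.05 over all probe sets. Filled points lie left of 0 throughout, from -2.72 (Neat1) to -0.30 (Zbed6), and the 4 open points are a probe set each of Malat1 and Neat1 and 2 of Ubn2.

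Few calls were made between genotypes among other genes of these pathways. Over 7 lists that held 113 tested genes beside the 7, 1 gene was called in fetal liver, where 0.32% of all tested genes were called, and 0 in bone marrow (limma), with 23 higher and 10 lower in fetal liver and 5 higher and 3 lower in bone marrow at an unadjusted p under 0.05. Of all 13135 tested genes, 1037 were higher and 1853 lower at that level in fetal liver, and 378 higher and 508 lower in bone marrow. The median difference of the 113 was 0.11 in fetal liver and -0.01 in bone marrow. In the interaction, which tests whether the genotype difference differs between tissues, 0 of the 113 passed (limma), where 0.0914% of all tested genes did.

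The called gene was Tnrc6a, whose GW182 protein binds Argonaute and silences microRNA targets. It stood at 10.38 and 10.39 in knockout fetal liver and 9.77 and 9.81 in wild-type fetal liver, a difference of 0.60 ± 0.08 (SE; adjusted p = 0.0399, limma), and at 10.84 and 10.85 against 10.85 and 10.83 in bone marrow. The call was lost with the fetal liver arrays alone (adjusted p = 0.277, limma), with no filter on low values (0.062), and with any single array left out (0.101 to 0.136) other than the knockout fetal liver array of replicate 2. In its list of microRNA pathway proteins, 1 of 17 tested genes rose, 0 fell and 14 had a positive difference in fetal liver. Their median was 0.18, against -0.03 for all tested genes. The share of all tested genes with a positive difference was not counted, so nothing is read from such counts in any list. The Tnrc6a paralogs Tnrc6b and Tnrc6c, named after their values were seen, differed by 0.59 and 0.36 without passing (adjusted p = 0.0526 and 0.117, limma). The other Argonaute genes did not pass either, with Ago1 at 0.43, Ago3 at 0.18 and Ago4 at 0.15. In bone marrow 0 of the 17 passed (1 higher and 1 lower at an unadjusted p under 0.05, limma), with Ddx6 at -0.34 and Tarbp2 at 0.31 having the smallest p.

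Of 26 tested long non-coding RNAs 0 passed in fetal liver (limma; 6 higher and 5 lower at an unadjusted p under 0.05), with 14 positive and a median of 0.05. The smallest p were those of Jpx, an RNA of the X-inactivation centre, at -0.50, and Snhg14 at -0.55, in the same pools that differed in Xist. In bone marrow 0 of 26 passed (2 higher at an unadjusted p under 0.05, limma), with Rian at 0.65 and Snhg14 at 0.38, both under 5 (log2) on all 4 arrays there. The paraspeckle proteins, partners of Neat1, gave 0 of 15 in either tissue (limma; 1 higher and 2 lower at an unadjusted p under 0.05 in fetal liver, 0 in bone marrow), with a median of 0.01 in fetal liver, Ewsr1 at -0.33 and Cpsf6 at -0.28. In bone marrow their smallest p were those of Sfpq at -0.18 and Tardbp at -0.14.

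Nuclear speckle and splicing proteins gave 0 of 23 in either tissue (limma; 5 higher and 1 lower at an unadjusted p under 0.05 in fetal liver, 1 lower in bone marrow), with 15 positive and a median of 0.16 in fetal liver. The speckle scaffold genes Srrm2, at 0.43, and Srrm1, at 0.46, had the smallest p there (adjusted p = 0.0911 and 0.0996, limma), and Tra2a, at -0.25, and U2af1, at -0.19, in bone marrow. Among 13 tested genes of H3.3 and of histone chaperones 0 passed in either tissue (limma). At an unadjusted p under 0.05 (limma), 2 were higher and 1 lower in fetal liver, and there were 0 in bone marrow. Asf1a, which hands H3-H4 to other chaperones, differed by -0.39 and Ubn1, the paralog of Ubn2, by 0.24 in fetal liver, while Anp32e was at -0.16 and Hira at -0.13 in bone marrow.

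Replacement and linker histones gave 0 of 10 in either tissue (limma; 1 higher at an unadjusted p under 0.05 in fetal liver, 0 in bone marrow), with Macroh2a1 at 0.38 and H2aw at 0.35 in fetal liver and Macroh2a2 at -0.34 and Cenpa at 0.12 in bone marrow. The list of Zbed6 relatives and Igf genes gave 0 of 9 in either tissue (limma; 2 higher and 1 lower at an unadjusted p under 0.05 in each). Igf1r, the receptor gene, differed by 0.37 and Igf2bp1 by 0.37 in fetal liver, and Igf2bp1 by 0.47 and Igf2bp3 by -0.31 in bone marrow.

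**Figure D4:**
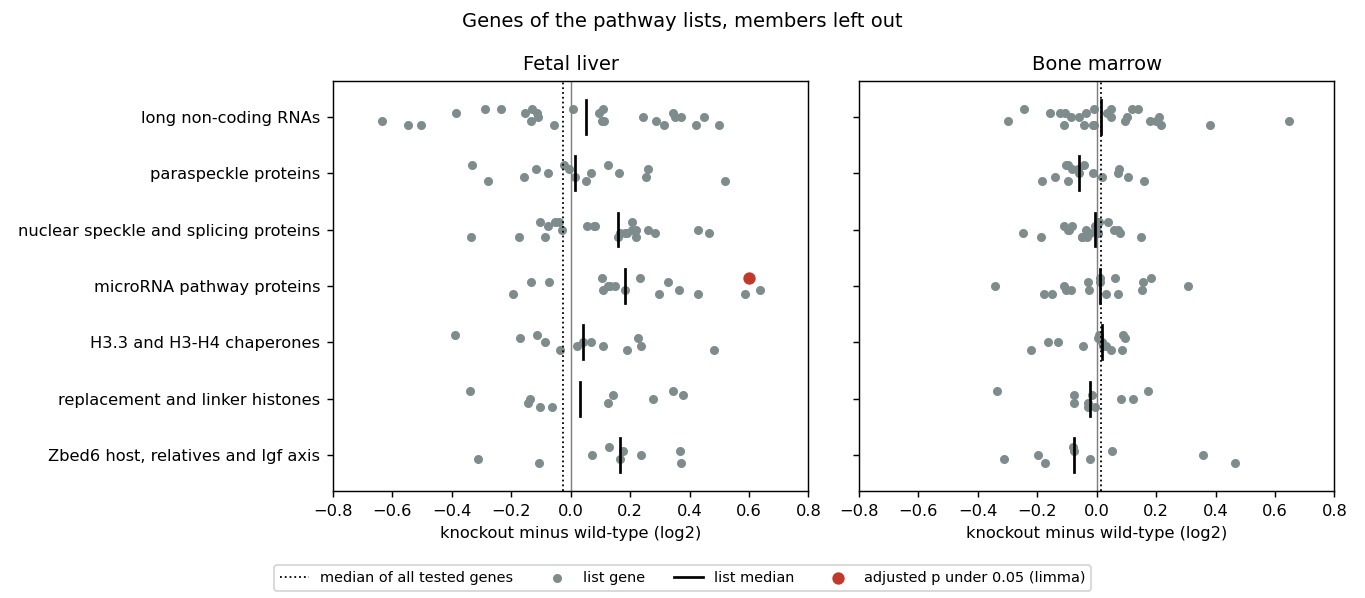
Knockout minus wild-type difference (log2) of each tested gene of 7 pathway lists in fetal liver (left) and bone marrow (right), with list medians as bars, the median of all tested genes as a dotted line and genes at an adjusted p under 0.05 in red; the 7 genes described here are left out. The single red point is Tnrc6a at 0.60, and list medians lie between 0.01 and 0.18 in fetal liver and between -0.08 and 0.02 in bone marrow.

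Likeness of pattern was measured as the root-mean-square distance (log2) between profiles over the 8 arrays, each centred on its own mean, and 13128 other tested genes were compared with each of the 7. Ubn2 was nearest to Tnrc6a (0.08), Tmem186 (0.12) and Sox6 (0.12). Ago2 was nearest to Ubr2 (0.08), Foxj2 (0.09) and Arhgef12 (0.09), and Malat1 to Arhgef12 (0.14), Ubr2 (0.15) and Kmt2d (0.15), so that these 2 share a pair of neighbours. H3f3a was nearest to Cep295 (0.12), Eya1 (0.13) and Mdm4 (0.14), and Zbed6 to Trim2 (0.12), Ifi203 (0.14) and Rprd2 (0.14). The genes with a wide gap between tissues had other neighbours, Neat1 having D130051D11Rik (0.09), Lcp1 (0.12) and Rab44 (0.13), and Gdap10 having Xaf1, Nfkbia and Apobr (0.25 each). Among the 7 themselves Ago2 and Ubn2 were closest (0.13), followed by Ago2 and Malat1 (0.16), and Neat1 and Zbed6 were farthest apart (1.23). The profiles hold the fetal liver levels that chose the genes. Likeness among the 7 and shared neighbours therefore follow in part from that choice.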

How the data were processed

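The authors deposited 1 intensity per probe set and array, made with RMA, per the submitters' processing notes, which name no version. RMA makes arrays alike in distribution, so a shift of most genes would be removed. Groups came from the sample titles. Values were analysed as log2 of the intensity. Of 45101 probe sets 34945 name 1 gene, 932 several and 9224 none here; 34741 were found in the RefSeq table and 0 symbols changed. Each of 18193 genes was represented by its brightest probe set on average. A minimum level of 5 (log2), reached by 2 arrays or more, left 13135 genes for testing, all 7 described here among them. limma 3.58.1 (R 4.3.3) was fitted to all 8 arrays with 1 mean per group, 1 spread for all groups and Benjamini-Hochberg adjustment at 0.05, two-sided. Other probe sets were tested in a fit over all 45037 that are not controls. Precision is limited by there being 2 arrays per group. The fit was also run on data simulated from its own variance model, which cannot show whether that model holds for these arrays.

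The genes and lists were chosen with earlier results of these data known. Named were all probe sets of the 7 genes, Col18a1, Xist and Eif2s3y, the called genes of each list and comparison (at most 3, or with none called the 2 with the smallest p), and the 3 nearest profiles per gene. Host genes, Igf2 and gene family relatives were added after their values were seen. Other settings changed the filter, the probe sets, scaling, variance model, array weights, a replicate block, the arrays used and, added later, leaving out chromosomes X and Y.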

Additional observations from a re-analysis of the deposited data

Results flagged for a closer look

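On 4 probe sets both knockout arrays were above both wild-type arrays in fetal liver and below both in bone marrow. The genotype difference in fetal liver minus that in bone marrow was 0.97 for Malat1 on 1418189_s_at, 1.14 on 1418188_a_at and 1.31 on 1452378_at, and 1.08 for Zbed6 on 1455998_at (log2). These differences between tissues were not tested, since they hold the comparison that chose the genes. With 2 arrays a group, 20.4% of all probe sets were higher in this way in fetal liver and 17.6% lower in bone marrow. The share of all probe sets that did both was not counted, so nothing is read from the 4. Of them, 1418189_s_at and 1418188_a_at are listed under the same source sequence and are not separate readings.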

How the results depend on the processing

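All 7 genes stayed lower in fetal liver than in bone marrow, averaged over genotypes, under each alternative run on arrays of both genotypes. Fits to 1 genotype hold the fetal liver levels that chose the genes, so their calls support nothing about them: with the knockout arrays alone 4 were called, and Malat1 (0.0609) and Zbed6 (0.24) had the opposite sign. In bone marrow 0 of the 5 tested genes were called under any alternative, but small differences changed sign: with the mean of all probe sets Neat1 (0.0228), Ubn2 (0.12), Tardbp (0.0056), Hira (0.0092) and Cenpa (-0.0398), and over single arrays left out Neat1 (-0.15 to 0.11), Ubn2 (-0.0645 to 0.0620) and Ago2 (-0.0540 to 0.0069). The fetal liver differences of the 7 kept their direction, and the mean of all probe sets moved those of Malat1 (0.64), Ubn2 (0.28) and Zbed6 (0.38). The 42 genes called in fetal liver became 14 with no filter, 25 over all probe sets, 409 with a trend and robust variance, 9 with array weights, 4 with the tissue's arrays alone and 5 to 1009 over single arrays left out: 1009 without knockout fetal liver replicate 2, 5 without its replicate 1, 14 and 6 without wild-type fetal liver replicates 1 and 2, and 9 to 13 without a bone marrow array. The 54 called in bone marrow became 97 with the trend, 109 with array weights, 3 with the tissue's arrays alone and 2 to 76 over single arrays left out, with 2 without either knockout and 8 without wild-type bone marrow replicate 1. The 12 of the interaction became 5 with no filter, 68 with the trend, 6 with array weights, 1 without chromosomes X and Y, a setting chosen after seeing the data, and 5 to 80 over single arrays left out. The tissue comparison called 9764 genes, 23143 probe sets over all of them, and 9082 to 9729 genes with an array left out. The 1 list gene called in fetal liver became 0 with no filter, the mean of probe sets, all probe sets, array weights or the tissue's arrays alone, 2 with a minimum of 6, 8 with the trend and 0 to 14 over single arrays left out (14 without knockout fetal liver replicate 2); the 0 in bone marrow became 1 (Igf2bp1) with array weights. The causes were not tested. The replicate block gave 10 genes in fetal liver, 45 in bone marrow, 5 in the interaction and 0 list genes; same-numbered arrays did not deviate together (correlations of -0.12 to 0.00 across genes), and the labels give the number no other meaning. The 2 arrays per group limit all of these counts.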
